A study of Mus musculus with 192 samples.

Results

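L44 mice carry a transgene for tripro-human amylin, a form of human amylin with 3 proline substitutions, expressed under the rat insulin 2 promoter. The paper could not tell whether changes of Amylin mRNA in the brain came from the mouse's own gene or from the transgene. Hemizygous (HEM) males on the FVB/n background were examined at T3, the post-diabetic stage, and each pool of their brain RNA is labelled by whether the mice had been diabetic earlier (previously diabetic) or had not (never diabetic). The 18 HEM pools described here, from the midbrain and both cortices, out of 192 pools in the series, were taken by these labels alone, with 3 previously diabetic and 3 never diabetic pools in each region. The midbrain sample also holds the forebrain and hypothalamus. At T3 every HEM pool, whether never or previously diabetic, carried the transgene, received no other treatment and came from mice aged 400 to 407 days. The never diabetic pools were 1, 4/5 (both collected in the morning, AM) and 8/10 (afternoon, PM), and the previously diabetic pools were 2/3, 6 (both AM) and 7/9 (PM), where 4/5 means that RNA of mice 4 and 5 was mixed in equal amounts. In the right cortex, pool 7/9 was replaced by mouse 9 alone. AM and PM were therefore balanced between the histories, and each previously diabetic pool could be set against a never diabetic pool of the same collection time and a labelled age within 7 days. The same 6 sets of mice gave all 3 regions, apart from mouse 7 in the right cortex, so the regions are not independent samples of mice. Pools from nontransgenic (NON) mice aged 400 to 406 days, 3 previously and 3 never diabetic in each region, were set beside them, and the homozygous (HOM) pools, aged 400 to 407 days, are 5 previously and 1 never diabetic. In the hindbrain only 1 HEM pool was never diabetic, and that region was left out of the tests. Blood glucose is not part of the counts, so the diabetic history of a pool could not be checked in them.

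Amylin is secreted with insulin by beta-cells and acts in the brain to reduce food intake through receptors built from the calcitonin receptor (Calcr) and a receptor activity-modifying protein (Ramp1, Ramp2 or Ramp3). Insulin acts through its receptor, the PI3-kinase and Akt, and leptin through its receptor, Jak2 and Stat3, with Socs3 as a brake. In the arcuate nucleus of the hypothalamus these hormones act on Pomc and Cart neurons, which lower appetite, and on Npy and Agrp neurons, which raise it. The peptide made from Pomc activates the melanocortin 4 receptor, Mc4r, and Agrp blocks it. c-Fos is an immediate early gene whose mRNA is made briefly after neurons fire.

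The mRNA of 43 genes of these pathways was counted on the nCounter platform, which hybridises a barcoded probe to each mRNA and counts barcodes without amplification. The 43 target genes together gave 144251 to 235322 counts in a HEM midbrain pool, 74587 to 261679 in a left cortex pool and 90264 to 264292 in a right cortex pool. A gene was taken as above background in a pool when its count was more than 2 SD over the mean of that pool's negative control probes, a level of 11.57 to 28.46 counts in these pools. All 6 HEM pools were above background for 40 genes (midbrain), 33 genes (left cortex) and 34 genes (right cortex). Normalised counts are counts divided by the geometric mean of the 3 reference genes and scaled to the mean of that level over the T3 pools of the region. They are comparable between pools of a region but not between genes, because probes differ in efficiency. In tissue pools, fewer cells of a type and less RNA per cell cannot be told apart.

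The question was whether the brain of HEM mice that had passed through diabetes differed at T3 from that of HEM mice that had not. No gene passed an adjusted p of 0.05 when edgeR's quasi-likelihood p-values were adjusted (Benjamini-Hochberg, 43 genes a region): 0% of the genes tested passed in the midbrain, and likewise 0% in the left cortex, 0% in the right. At an unadjusted p under 0.05, before any adjustment, the midbrain had 4 genes, the left cortex 2 and the right cortex 8. The lowest adjusted p was 0.155 for Agrp in the midbrain, 0.843 for Ins1 in the left cortex and 0.0671 for Mc4r in the right cortex. DESeq2 called 1 midbrain gene, 0 left cortex genes and 2 right cortex genes. The labels do not say how the mice were drawn from litters. The p-values rest on the spread among all 18 T3 pools of a region (HEM, NON and HOM), shared in part between genes. They do not rest on the HEM pools alone, and pools of 1 and of 2 mice were treated alike. The values that follow are differences in these pools and not calls.

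**Figure D1:**
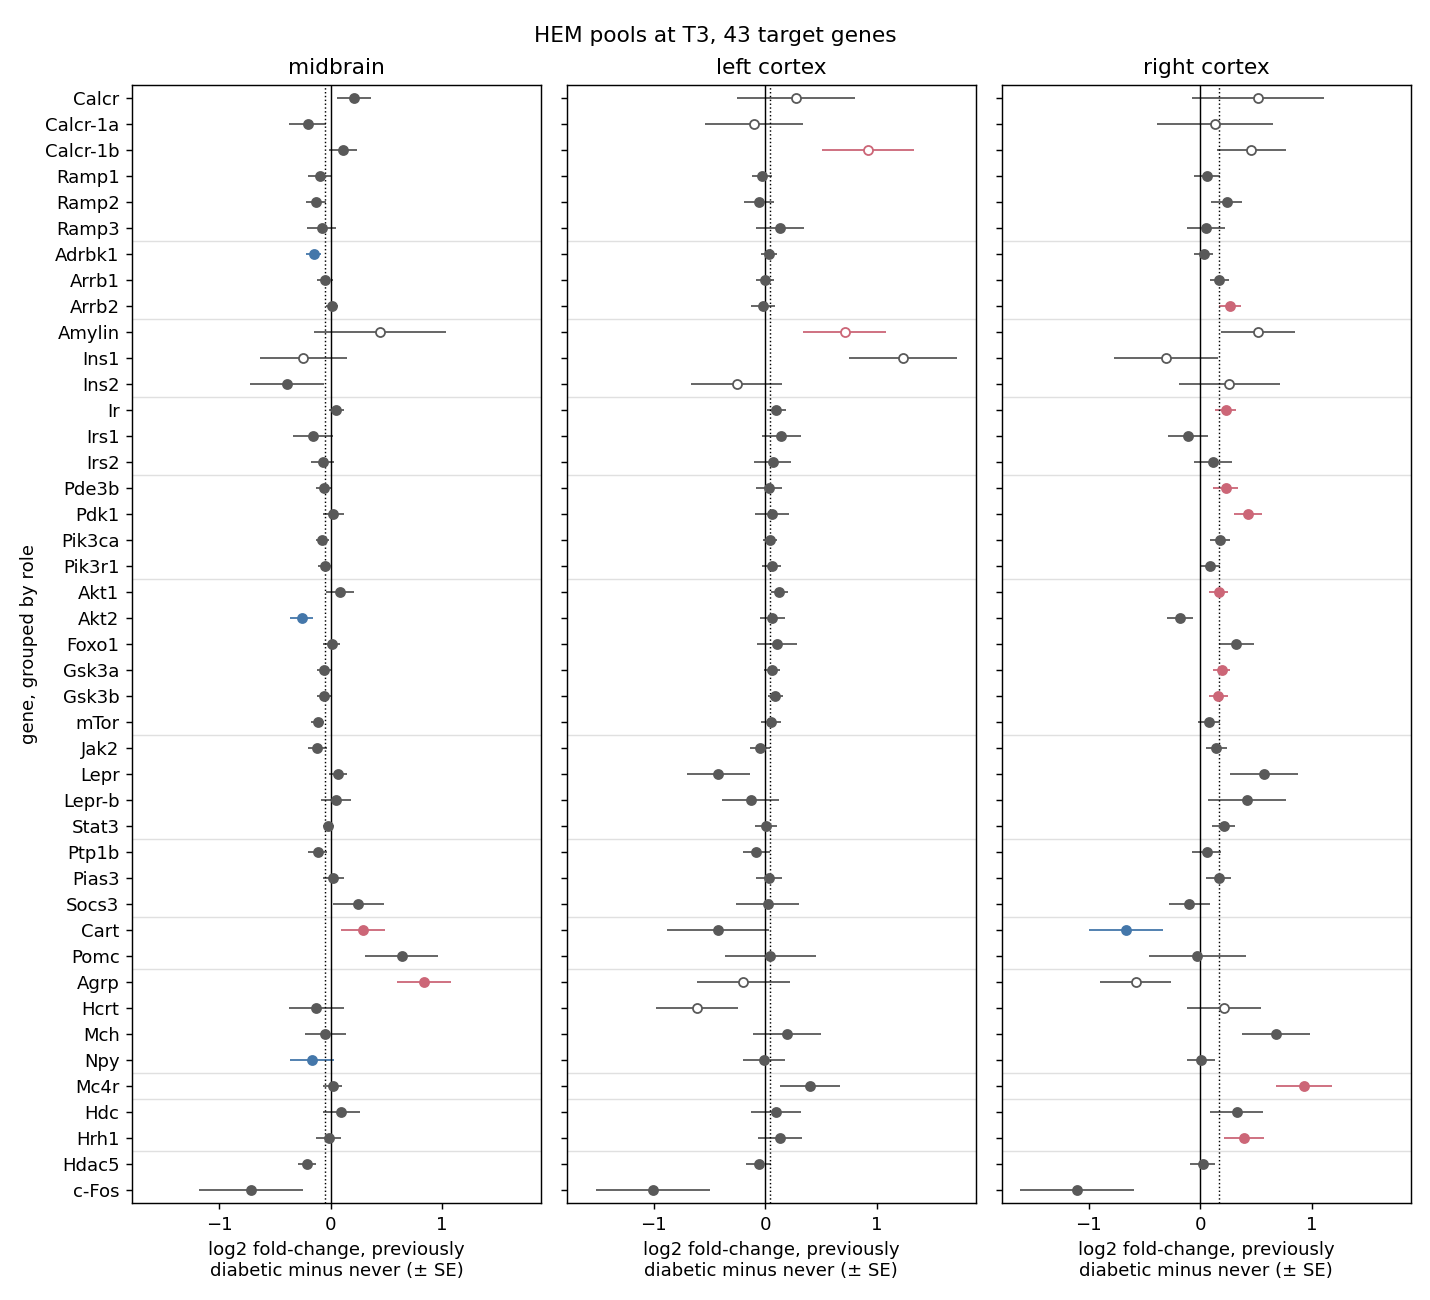
Log2 fold-change of previously over never diabetic HEM pools at T3 (x axis, ± SE from the fit over 18 pools of the region) for 43 target genes (y axis, grouped by role) in 3 regions. Red and blue mark genes whose previously diabetic pools all lay above or below all never diabetic pools, open circles mark genes above background in fewer than 4 of 6 pools, and the dotted line is the median of the 43 genes, which lies at 0.17 in the right cortex.

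c-Fos had the most uniform direction. In the midbrain its normalised count was 2221, 4658 and 5681 in the never diabetic pools 1, 4/5 and 8/10, and 1915, 3874 and 1503 in the previously diabetic pools 2/3, 6 and 7/9. In the left cortex the never diabetic pools stood at 2925, 4157 and 5683, and the previously diabetic pools at 1864, 4110 and 928. In the right cortex the never diabetic pools stood at 3161, 4620 and 5982, and the previously diabetic pools at 1742, 3470 and 1474. In each region the groups overlapped, because pool 6 was above the never diabetic pool 1, while the PM pair lay farthest apart. Pools were also set side by side by collection time and a labelled age in common (2/3 with 1 at 407 days, 6 with 4/5 at 404 days, and 7/9 or 9 with 8/10), although pool 2/3 also held a mouse of 400 days. This matching is not a pairing of the study's design. Matched in this way, c-Fos was lower in the previously diabetic pool in 9 of 9 pairs over 3 regions, and of the 43 genes 1 (2.33%) was lower and 0 were higher in all 9. Amylin, Calcr-1b, Hrh1 and Ir were each higher in 8 of the 9 pairs. The c-Fos count depends on the matching, since its value in pool 6 was above that in pool 1 in all 3 regions. Because the regions came from the same mice, the 9 pairs are 3 sets of animals seen in 3 tissues.

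The log2 fold-change of c-Fos was -0.72 ± 0.47 (SE, n = 3 against 3 pools, adjusted p = 0.693 by edgeR) in the midbrain, with an approximate 95% interval of -1.71 to 0.28. It was -1.01 ± 0.51 (SE, adjusted p = 0.843 by edgeR) in the left cortex and -1.10 ± 0.51 (SE, adjusted p = 0.196 by edgeR) in the right cortex. The mean over the 3 regions was 12.01 ± 0.55 (SD, n = 3 pools) on the log2 scale in never diabetic pools and 11.02 ± 0.81 (SD, n = 3 pools) in previously diabetic pools, a difference of -0.997 with a two-sided exact permutation p of 0.2. With 3 against 3 pools this test cannot go below 0.1, and none of the 15 genes to which it was applied had an adjusted p under 0.375. The matched pools were also fitted as a block over the 6 HEM pools, which leaves 2 residual degrees of freedom. By edgeR the adjusted p of c-Fos was then 0.425 for the midbrain, 2.63e-11 for the left cortex and 4.08e-08 for the right. The 3 log2 ratios nevertheless had an SD of 0.97, 1.35 and 0.83 in the same order. The within-pair log2 ratios ranged from -0.02 for pool 6 over 4/5 in the left cortex to -2.61 for pool 7/9 over 8/10 in the same region. Leaving out pool 6 gave log2 fold-changes of -1.29 (midbrain), -1.64 (left cortex) and -1.51 (right cortex). Leaving out the PM pool 7/9 gave -0.32 (midbrain) and -0.56 (left cortex), pool 9 -0.88 (right cortex), and the PM pool 8/10 -0.53, -0.51 and -0.66 in the same order of regions. Keeping only the AM pools, 2 against 2, gave -0.24, -0.24 and -0.58.

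The NON pools, which share no animals with the HEM pools, gave c-Fos differences of the same sign. In the NON midbrain the never diabetic pools had 2247, 3786 and 7091 normalised counts, from lowest to highest, and the previously diabetic pools 2002, 2046 and 2077. In the left cortex they had 3440, 5010 and 5837 against 1709, 2230 and 2546, and in the right cortex 3525, 4251 and 6566 against 1818, 1983 and 2753. The NON groups did not overlap for c-Fos in any of the 3 regions, where 9.3%, 6.98% and 11.6% of the 43 genes, respectively, had NON groups that did not overlap. By their labels the NON pools of the 3 regions also came largely from the same mice, so these regions are not independent either. The NON log2 fold-change was -1.13 ± 0.46 (SE, adjusted p = 0.606 by edgeR) in the midbrain, -1.04 ± 0.51 (SE, adjusted p = 0.772) in the left cortex and -1.09 ± 0.51 (SE, adjusted p = 0.683) in the right cortex. The HEM effect less the NON effect was 0.42 ± 0.66 (SE, adjusted p = 0.82 by edgeR), 0.04 ± 0.73 (SE, adjusted p = 0.998) and -0.01 ± 0.72 (SE, adjusted p = 0.994), which leaves room for a difference between the genotypes of either sign. Averaged over HEM and NON in the same fit, a contrast chosen after these values were seen, c-Fos had a log2 fold-change of -0.93, -1.02 and -1.10 with edgeR adjusted p of 0.283, 0.297 and 0.17. NON pools were not balanced in collection time, with 2 PM pools among the previously diabetic and 1 among the never diabetic, and the fit held a term for it. The c-Fos values ran from 1770 to 5235 in the 5 previously diabetic HOM midbrain pools and stood at 4062 in the never diabetic one.

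**Figure D2:**
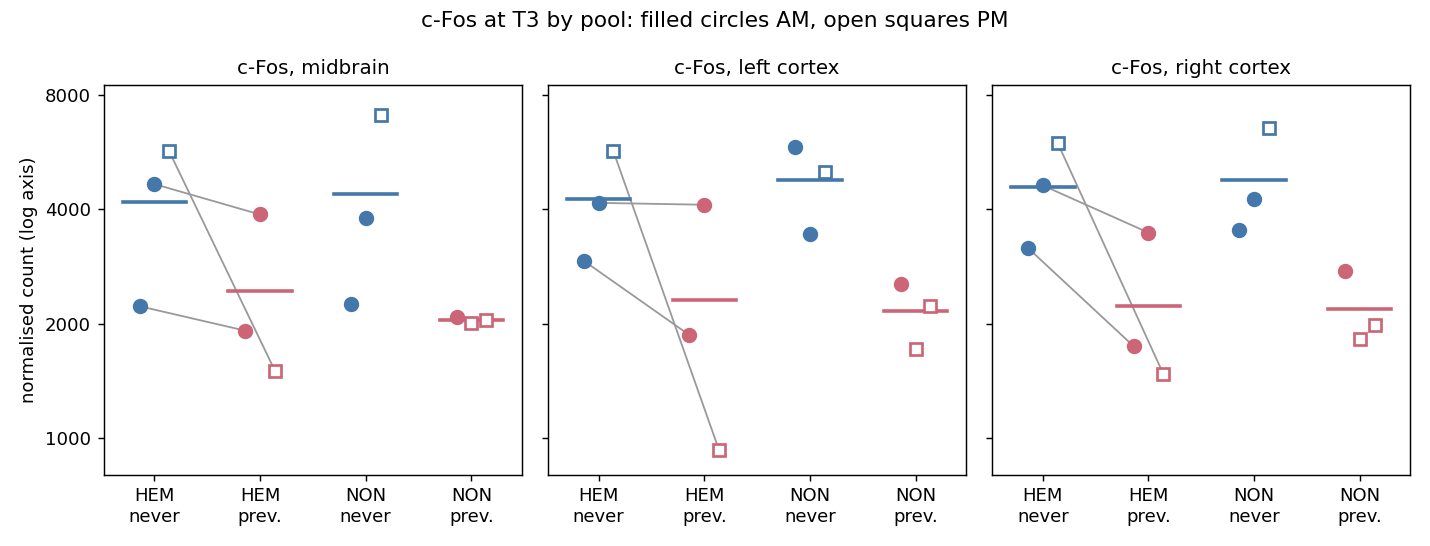
Normalised c-Fos count at T3 (y axis, log scale) in each HEM and NON pool, with a panel for each region, by genotype and history (blue never, red previously diabetic). Filled circles are AM and open squares PM pools, horizontal bars are group means, and grey lines join HEM pools matched by collection time and an age in common, all of which slope downwards.

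Hdac5, a histone deacetylase grouped with c-Fos as a gene of activity and chromatin, was 7571, 9280 and 9058 in the never diabetic and 7201, 7529 and 7642 in the previously diabetic midbrain pools, so that only pool 1 overlapped the other group. Its log2 fold-change was -0.21 ± 0.08 (SE, adjusted p = 0.344 by edgeR) there. The cortices gave -0.06 (left) and 0.02 (right), both of which changed sign under another scaling.

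Among the appetite peptides of the midbrain, Agrp had the lowest p. Its normalised count was 106.9, 54.02 and 95.75 in the never diabetic pools and 140, 180.7 and 143.9 in the previously diabetic pools. All previously diabetic pools were above all never diabetic pools, as was the case in one direction or the other for 11.6% of the genes in this region. The mean was 85.6 ± 27.9 (SD, n = 3) against 154.9 ± 22.5 (SD, n = 3), and the log2 fold-change was 0.84 ± 0.24 (SE, adjusted p = 0.155 by edgeR), with an interval of 0.32 to 1.36. With each of the 6 pools left out in turn it was 0.57 (without pool 4/5) to 1.02 (without pool 1). In the NON midbrain Agrp was 67.7 to 101.9 in the never diabetic and 124.1 to 133.5 in the previously diabetic pools, a log2 fold-change of 0.73 ± 0.24 (SE, adjusted p = 0.36 by edgeR). The HEM and NON effects differed by 0.11 ± 0.34 (SE, adjusted p = 0.884 by edgeR). Averaged over HEM and NON, a contrast chosen after the values were seen, Agrp had a log2 fold-change of 0.78 with an edgeR adjusted p of 0.0163, the only gene under 0.05 in that contrast in any of the 3 regions. The 5 previously diabetic HOM midbrain pools had 98.8 to 172.1, and the never diabetic one 102.3. In the cortices Agrp was at or near background, above it in 1 of 6 HEM pools on each side.

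The other appetite genes of the midbrain had no common direction. Pomc was 237.1, 280.6 and 241 in the never diabetic pools and 230.2, 437.2 and 498.4 in the previously diabetic pools, so that 2 of the latter were high and pool 2/3 was the lowest of all 6 (log2 fold-change 0.64 ± 0.33, SE, adjusted p = 0.549 by edgeR). Cart was 3895, 4104 and 4144 against 4827, 4451 and 5546 without overlap (log2 fold-change 0.29 ± 0.20, SE, adjusted p = 0.693). Npy was 17970, 17370 and 17590 against 16500, 15190 and 15440, also without overlap, but its log2 fold-change of -0.17 ± 0.20 (SE, adjusted p = 0.734) was within the spread that the fit estimated over all T3 pools. Mch and Hcrt, peptides of the lateral hypothalamus that raise appetite, had log2 fold-changes of -0.05 and -0.13 in the midbrain. The midbrain median was 0.46 for the 2 appetite-lowering peptides (both above 0). It was -0.09 for the 4 appetite-raising peptides (1 above 0, Agrp at 0.84), beside -0.05 for all 43 genes. Npy and Cart were also well above background in both cortices, so their midbrain counts need not come from the arcuate nucleus.

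The tissue labels were compared with markers of hypothalamic neurons (Agrp, Pomc, Hcrt, Mch and Hdc). All 5 were above background in every HEM midbrain pool, and their summed normalised count, most of it Mch, was 15683.7, 26933.7 and 27704.2 in the never diabetic and 22212.3, 20857.7 and 25403.6 in the previously diabetic pools. The lowest was pool 1, which had 14580 for Mch against 19370 to 26370 in the others. The markers did not move together, since pool 1 also had the lowest Hcrt (506.3) but the highest Agrp of the never diabetic pools (106.9). How much hypothalamus each midbrain sample held was not measured, and its part in the Agrp values was not tested. In the cortices 2 to 4 of the 5 markers were above background in a pool, with sums of 92.7 to 186 in the left cortex. The right cortex sums were 174.7, 174.4 and 135.3 in the never diabetic and 222.1, 224.7 and 145.5 in the previously diabetic pools, highest in pools 2/3 and 6. Markers of pancreatic islets, which also include the hormone genes of the panel (Ins1, Ins2 and Amylin), were at or under background in every HEM cortical pool. In the HEM midbrain Ins1 and Amylin were each above background in 1 of 6 pools, and Ins2 in 4.

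More genes separated the histories in the right cortex than in the left. No gene's history effect differed between the cortices at an adjusted p of 0.05 (edgeR). With 3 against 3 pools in random order, a gene separates in either direction with probability 0.1. In the left cortex 4.65% of the genes did not overlap between the groups, and these were Calcr-1b and Amylin, both higher in the previously diabetic pools at levels near background. Calcr-1b, a probe for an isoform of the calcitonin receptor, was 2.137, 9.865 and 11.73 against 18.6, 17.11 and 17.38 (log2 fold-change 0.92 ± 0.41, SE, adjusted p = 0.843 by edgeR, and 1.54 without pool 8/10), and only 2 of these 6 pools were above background. Amylin was 6.41, 1.973 and 9.97 against 13.29, 11.16 and 11.24, with none of the pools above background. Ins1, an insulin gene, had a log2 fold-change of 1.23 ± 0.49 (SE, adjusted p = 0.843 by edgeR) on normalised counts of 1.759 to 7.972, none above background, and it turned to -0.37 once the mean of the negative control probes was subtracted. No level can be read from such counts.

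In the right cortex 23.3% of the genes did not overlap, 9 with the previously diabetic pools above and 1, Cart, with them below. The share was 11.6% in the NON right cortex. Mc4r, the receptor on which the Pomc and Agrp peptides act, was 165, 165 and 215.1 in the never diabetic and 321.1, 494.4 and 241.2 in the previously diabetic pools. Pool 6 was the highest, and the PM pair, 215.1 and 241.2, differed least. The mean was 181.7 ± 28.9 (SD, n = 3) against 352.2 ± 129 (SD, n = 3), and the log2 fold-change was 0.93 ± 0.26 (SE, adjusted p = 0.0671 by edgeR), with an interval of 0.39 to 1.47. Without pool 9 it was 1.13 (adjusted p = 0.0278 by edgeR) and without pool 8/10 1.19 (adjusted p = 0.0266), whereas without pool 6 it was 0.65 (adjusted p = 0.384). Beside it, the hypothalamic peptide Mch was 60.41, 46.58 and 39.11 in the never diabetic and 81.32, 103.6 and 51.56 in the previously diabetic right cortex pools (log2 fold-change 0.68 ± 0.31, SE, adjusted p = 0.196 by edgeR), and like Mc4r it was highest in pools 6 and 2/3. The part of deeper tissue in the right cortex samples was not tested. The left cortex gave 166.7, 203.2 and 253.4 against 349.4, 279.7 and 198.3, where the AM pools were higher and the PM pool lower than their counterparts (log2 fold-change 0.40 ± 0.27, SE, adjusted p = 0.869). In the midbrain Mc4r was 1045 to 1091 in the never diabetic and 1016 to 1123 in the previously diabetic pools, a log2 fold-change of 0.02 ± 0.08 (SE). In the NON right cortex Mc4r was 238.7 to 303.8 in the never and 181.8 to 287.9 in the previously diabetic pools (log2 fold-change -0.19 ± 0.25, SE), and the HEM effect less the NON effect was 1.12 ± 0.36 (SE, adjusted p = 0.302 by edgeR). All 3 NON never diabetic pools were thus above all 3 HEM never diabetic pools. The right cortex effect less the midbrain effect for Mc4r was 0.91 ± 0.27 (SE, adjusted p = 0.0716 by edgeR, with the pool as a block), and the right less the left cortex effect 0.55 ± 0.28 (SE, adjusted p = 0.429).

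Pdk1 was 4893, 4274 and 4056 in the never diabetic and 5791, 7039 and 5024 in the previously diabetic right cortex pools, again with pool 6 the highest (log2 fold-change 0.43 ± 0.12, SE, adjusted p = 0.0671 by edgeR, 0.0278 without pool 9 and 0.384 without pool 6). The probe's accession belongs to the RefSeq gene Pdk1, pyruvate dehydrogenase kinase 1, which restrains the entry of pyruvate into the citric acid cycle, and not to Pdpk1, the kinase that activates Akt and for which the panel lists it. The left cortex gave 4904, 4656 and 4715 against 5690, 4512 and 4690 (log2 fold-change 0.06 ± 0.15, SE), and the NON right cortex a log2 fold-change of 0.10 ± 0.13 (SE). Arrb2, an arrestin that uncouples activated receptors, was 3846, 3615 and 3952 against 4340, 4923 and 4472 in the right cortex (log2 fold-change 0.27 ± 0.10, SE, adjusted p = 0.195 by edgeR).

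**Figure D3:**
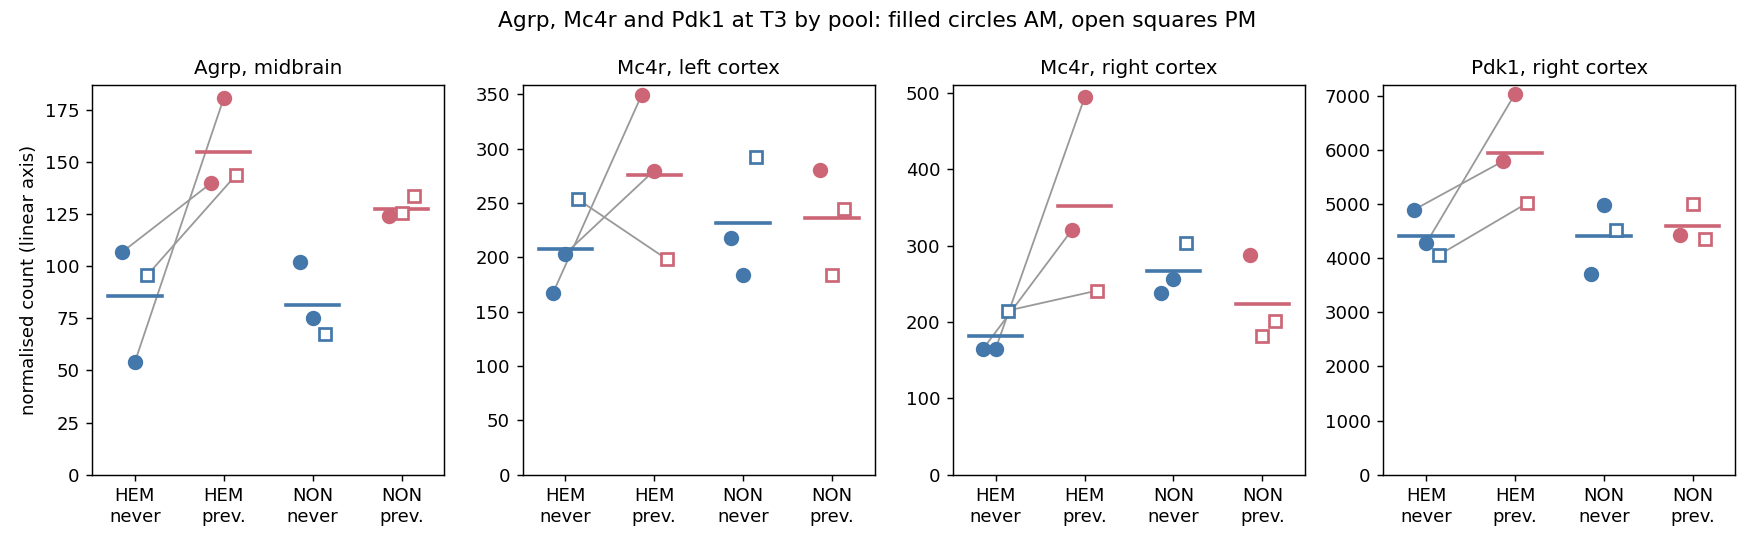
Normalised counts at T3 (y axis, linear scale from 0) of Agrp in the midbrain, Mc4r in the left and right cortex and Pdk1 in the right cortex, by genotype and history, drawn as for c-Fos with bars at group means. In HEM the previously diabetic pools lie above the never diabetic pools for Agrp, for Mc4r in the right cortex and for Pdk1, and in NON only for Agrp.

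With the reference genes as normaliser, most genes of the right cortex leaned the same way. The log2 fold-change was above 0 for 35 of 43 genes there, against 17 in the midbrain and 27 in the left cortex, and its median was 0.17 against -0.05 and 0.04. The median was 0.17 for the 6 genes of Akt and its targets, of which 5 were above 0. The highest of them was Foxo1, a transcription factor that Akt restrains, at 0.33, with 1645, 1419 and 1519 against 1655, 2551 and 1563, where pool 6 stood apart from the other 5. Of the 6 amylin receptor probes, all above 0 with a median of 0.19, the 3 for Calcr and its isoforms were above background in at most 1 of 6 pools, and Ramp1, Ramp2 and Ramp3 had log2 fold-changes of 0.06, 0.24 and 0.05. In the PI3-kinase arm, Pde3b, Pik3ca and Pik3r1 had 0.23, 0.18 and 0.09. Of the leptin receptor arm, Jak2 and Stat3 had 0.15 and 0.21, and the probes Lepr and Lepr-b, which belong to 1 gene, had 0.57 and 0.42. Within these lists, Gsk3a, a kinase that Akt inhibits, was 21370, 20810 and 20510 against 23220, 24540 and 23840, without overlap (log2 fold-change 0.19 ± 0.07, SE, adjusted p = 0.195 by edgeR). The insulin receptor, Ir, was 1339, 1239 and 1227 against 1431, 1572 and 1454, also without overlap (log2 fold-change 0.23 ± 0.10, SE, adjusted p = 0.196). The leptin receptor, Lepr, was 322.5, 503.1 and 448.1 against 471.2, 1045 and 410, where pool 6 stood alone. Hrh1, a histamine receptor, was 798.2, 802.6 and 671.4 against 861.1, 1293 and 834.1, without overlap and with pool 6 again the highest. Pool 6 had the highest value of the 6 pools for 25 of 43 genes in the right cortex, and without it the median of the 43 genes was 0.12. Cart went the other way, with 1608, 1274 and 1527 against 1058, 1015 and 726 (log2 fold-change -0.67 ± 0.33, SE, adjusted p = 0.196 by edgeR), and its left cortex and midbrain values were -0.42 and 0.29.

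The reference genes by which all values were divided also differed with history in the right cortex. Their geometric mean was 3413.9, 2766.9 and 2259.8 raw counts in the never diabetic and 3532.3, 5720.5 and 4428.3 in the previously diabetic pools, without overlap. In the midbrain it was 6003, 3887.4 and 3655.5 against 3624.1, 4616.3 and 3932.8, and in the left cortex 1763.5, 1909.9 and 6425 against 2835.9, 5065.6 and 3686.6, with overlap in both. Scaled by TMM on the target genes instead, the right cortex median was 0.02, with 24 of 43 genes above 0, and scaled by the positive control probes, which do not correct for the amount of RNA loaded, it was 0.61 with 40 genes above 0. The midbrain had 25 genes above 0 with TMM and 28 with the positive controls, and the left cortex 15 and 32. TMM on the target genes centres their fold-changes near 0 by construction, so its counts do not show whether the right cortex differed from the other regions. All 10 right cortex genes without overlap kept their sign under the 3 scalings. A change of scaling moves all genes by a similar amount, so genes chosen far from 0 tend to keep their sign. This is therefore not separate support, and the size of the small differences depended on the scaling. With TMM, Akt1 fell from 0.17 to 0.02 and Gsk3b from 0.16 to 0.02. The log2 fold-change of Gsk3a was 0.19 with the reference genes, 0.04 with TMM and 0.64 with the positive controls, that of Ir was 0.23, 0.08 and 0.67, and that of Mc4r was 0.93, 0.78 and 1.48. The part of RNA input in the right cortex values was not tested.

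**Figure D4:**
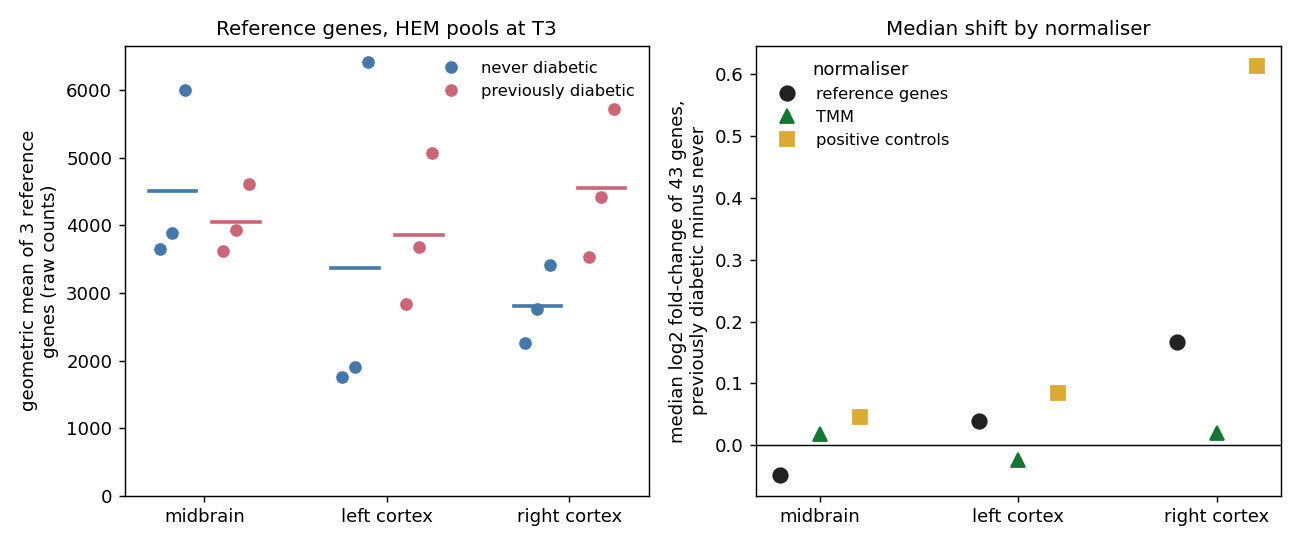
Left, geometric mean of the 3 reference genes in raw counts (y axis from 0) in each HEM pool at T3 by region and history, with bars at group means. Right, median log2 fold-change of the 43 genes between previously and never diabetic HEM pools (y axis) by region under 3 normalisers, which spread from 0.02 to 0.61 in the right cortex.

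No gene passed the test in any region, and this includes the remaining genes of the amylin, insulin and leptin pathways described here. In the midbrain Pik3ca, Pde3b and Pik3r1 of the PI3-kinase arm had log2 fold-changes of -0.07, -0.06 and -0.05, and the 4 probes of the leptin receptor arm -0.12 to 0.07. In the left cortex the 6 genes of Akt and its targets had 0.05 to 0.13, and the 4 probes of the leptin receptor arm -0.42 to 0.005, with 3 below 0. The lowest of these was Lepr, at 745.7, 491.3 and 490.3 against 498.3, 432.9 and 350.6, with groups that overlapped (log2 fold-change -0.42 ± 0.28, SE, adjusted p = 0.869 by edgeR). Akt2, an Akt kinase that carries insulin signals to glucose uptake, was in the midbrain at 1510, 1256 and 1360 against 1201, 1131 and 1114, without overlap (log2 fold-change -0.26 ± 0.10, SE, adjusted p = 0.344 by edgeR). Its cortical log2 fold-changes were 0.06 (left) and -0.18 (right). Adrbk1, a kinase that desensitises receptors, was 8334, 7470 and 7818 against 7380, 6819 and 7039 in the midbrain, without overlap (log2 fold-change -0.15 ± 0.07, SE, adjusted p = 0.464). Socs3, the brake on leptin signalling, was 36.93, 46.52 and 52.66 against 46.68, 56.86 and 54.88 in the midbrain (log2 fold-change 0.25 ± 0.23, SE, adjusted p = 0.734 by edgeR), with overlapping groups. Its log2 fold-changes in the cortices were 0.02 (left) and -0.10 (right). Calcr was 533.5, 835.8 and 852.1 against 795.1, 802.4 and 959.7 in the midbrain (log2 fold-change 0.21 ± 0.15, SE, adjusted p = 0.693), where it is well above background, and at or under background in 5 of 6 HEM pools of each cortex. The probes for Calcr and Calcr-1a carry the same accession, as transcripts of 1 gene, and are not independent.

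The differences of the history effect between regions were fitted over the 18 HEM pools with the mouse pool as a block. By edgeR's quasi-likelihood test no gene passed an adjusted p of 0.05, with 5 genes at an unadjusted p under 0.05 for left cortex less midbrain, 13 for right cortex less midbrain and 4 for right less left cortex. The lowest adjusted p was 0.0716 for the right cortex less the midbrain, shared by Gsk3a, Gsk3b and Mc4r. These fits used the reference genes, with which the median of the 43 genes was 0.17 in the right cortex and -0.05 in the midbrain. With TMM in each region, Gsk3a was 0.04 in the right cortex and 0.01 in the midbrain. Gsk3b was then 0.02 and 0.01, and Mc4r 0.78 and 0.08, in the same order. No gene had groups that did not overlap in the same direction in all 3 regions, or in both cortices. The HEM effect less the NON effect gave 0 genes in each region after adjustment and 1, 0 and 3 genes at an unadjusted p under 0.05 in the midbrain and the left and right cortices, respectively (edgeR).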

How the data were processed

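The authors isolated RNA from brain regions, pooled equal amounts from 1 or 2 mice of the same genotype and collection time, and deposited raw nCounter counts of 43 target genes, 3 reference genes, 8 negative and 6 positive control probes, without background correction or normalisation. No column of the table was left unmapped (0). Samples were grouped by the labels' genotype, history, region and collection time. Each region's 18 T3 pools were fitted with edgeR 4.0.16 in R 4.3.3 (quasi-likelihood test, prior count 0.125) with a mean for each genotype and history, an additive term for collection time, and the reference gene geometric mean as library size. The p-values were adjusted by Benjamini-Hochberg over 43 genes. Intervals use the fit's SE and pooled degrees of freedom and are approximate. Normalised counts received 0.5 before log2 in the permutation test. The genes given in full were the 3 with the lowest p in each region, any called or separated in all 3 regions, and 8 genes on which the study's text centres. Others were named by role. Pool values of Foxo1, Gsk3a, Ir, Lepr, Hrh1, Adrbk1 and right cortex Mch were added outside this rule. The comparison, genes and lists were chosen with earlier results of these data known. All 43 probe accessions matched a RefSeq gene (GRCm38.p6 table). The study's own software, NanoStringDiff, was not available. DESeq2 1.42.0 was an alternative, and other alternatives are given in the closing section. The test was checked on simulated data. Among 18 pairs of HEM pools of a group none had identical counts (chi-square over its degrees of freedom at least 6.73). Values of 1 reference gene are not given. Figures were drawn with matplotlib 3.10.9 in Python 3.11.15.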

Additional observations from a re-analysis of the deposited data

How the results depend on the processing

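The count of genes at an adjusted p under 0.05, which was 0 in each region, stayed at 0 in the left cortex under every alternative but the pairing. In the midbrain it was 1 (Agrp, adjusted p = 0.0239) with DESeq2 and 1 (Agrp) when HEM and NON were averaged, an alternative chosen after the values were seen, and 0 with each HEM pool left out. In the right cortex it was 2 with DESeq2 (Mc4r and Pdk1), 4 without the first of the reference genes (with Arrb2 and Gsk3a), 1 with the AM HEM pools alone (Mc4r) and 9 when pools of all time points of the region were fitted together, and it ranged from 0 to 2 with each HEM pool left out, at 2 without pool 9 and 1 without pool 8/10. Pairing the 6 HEM pools as a replicate block by age and collection time gave 0 genes in the midbrain, 1 in the left cortex (c-Fos, log2 fold-change -1.06, adjusted p = 2.63e-11) and 5 in the right cortex (c-Fos, log2 fold-change -1.09, adjusted p = 4.08e-08, Cart, Gsk3a, Mc4r and Pdk1). The SD of the 3 within-pair log2 ratios of c-Fos was 1.35 and 0.83 in these regions, about as large as the change itself. The deviations of matched pools from their group means correlated at 0.10, -0.08 and -0.24 across the 43 genes in the midbrain, 0.30, 0.23 and -0.12 in the left cortex and 0.28, 0.17 and 0.07 in the right cortex, so the pairing was not taken as established. Mc4r in the right cortex kept its direction under 20 of 20 alternatives, from 0.37 (HEM and NON averaged) to 1.48 (positive control probes), with adjusted p of 0.0152 to 0.384. Without pool 6 it was 0.65, and 1.19 without pool 8/10. Pdk1 ranged from 0.26 to 0.89 and Agrp in the midbrain from 0.57 to 1.02, and c-Fos stayed below 0 in each region, the weakest values being -0.24 in the midbrain and in the left cortex with the AM pools alone. Ins1 in the left cortex turned from 1.23 to -0.37 when the negative control mean was subtracted. The counts for the HEM effect less the NON effect and for the differences between regions stayed at 0 under all their alternatives. With 3 pools a group and 2 to 3 residual degrees of freedom in fits of the HEM pools alone, those adjusted p rest on the spread shared between genes. The filter on low genes left out 2 genes in the midbrain and 8 in each cortex.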

Other observations

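In the hindbrain, which had 1 never diabetic HEM pool and allowed no test of history, c-Fos had 3395 normalised counts in the never diabetic pool 8/10 (PM). The previously diabetic pools had 896.4 in 2/3 (AM), 426.4 in 7/9 (PM), 734.7 in 11/13 (PM) and 886.4 in 12 (AM), all below it. The never diabetic pool lay outside the range of the other 4 for 12 of the 43 genes (27.9%), above it for 2 and below it for 10. Pool 8/10 came from the mice whose c-Fos was the highest of the HEM pools in the midbrain and in both cortices, so this value is not independent of those. Hindbrain Mc4r was 222.1 in the never diabetic pool and 199.3 to 304 in the previously diabetic pools, and Pdk1 1541 against 1525 to 2365, each with the never diabetic pool inside the range of the others.

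The HOM pools, with 1 never diabetic pool in each region, also allowed no test. In the cortices their never diabetic pool had the highest c-Fos of the genotype, at 6023 against 1263 to 5153 in the left and 6323 against 1017 to 4944 in the right cortex. The same pool was the highest of the 6 HOM pools for 11 of the 43 genes (left cortex) and 16 (right cortex), so c-Fos was not alone in this. In the midbrain its c-Fos lay inside the range of the others.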
